A study of Mus musculus with 3 samples.

Results

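Within conventional mouse intestinal organoids, 345 cells with high Olfm4 were set apart and described gene by gene. They were selected on Olfm4 alone. A cell belonged if it held at least 3 unique molecular identifiers (UMIs, the tags that mark single captured mRNA molecules) of Olfm4 and if these made up at least 0.15% of its UMIs. Of 2545 kept cells of the ENR library, 13.6% met this rule (exact binomial 95% interval 12.2 to 14.9%), out of 5913 kept cells in the whole series. The cells of comparison were the 958 ENR cells in which no Olfm4 UMI was found, and the remaining 1242 cells lay between. Kept cells had 1000 to under 8000 UMIs and at least 400 genes.

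Organoids were grown in Matrigel from small intestinal crypts that had first been expanded as a culture enriched for intestinal stem cells (ISCs) with CHIR99021 and valproic acid, and all cells came from a single donor. In the ENR group they then received EGF (50 ng/mL), Noggin (100 ng/mL) and R-spondin 1 (500 ng/mL) for 6 days, with no further small molecule. The other two groups shared these growth factors and day 6. ENR+CD organoids also received CHIR99021 (3 µM), an inhibitor of GSK3 that activates Wnt signaling, and DAPT (10 µM), which shuts off Notch signaling through gamma-secretase, and ENR+CV organoids received CHIR99021 (3 µM) and valproic acid (1 mM), a histone deacetylase inhibitor. Single cells were captured with Seq-Well, in which cells and barcoded mRNA capture beads share nanowells, on 1 array per group. Organoids contain epithelium only, without the immune and stromal cells of the tissue. With 1 library per group there was no replicate and no test. Every interval below is a 95% interval for counting error only, and cells of 1 library are not replicates.

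In the small intestine, ISCs sit at the crypt base between Paneth cells, where Wnt ligands and R-spondins keep them dividing and Notch ligands on their neighbors keep them from becoming secretory. Lgr5, the receptor for R-spondins, marks these cells. Olfm4 encodes olfactomedin 4, a secreted glycoprotein whose transcript is abundant in crypt base cells and in their earliest progeny and depends on Notch activity. Its absence from a cell is not proof of differentiation in sparse data, because a shallow cell can miss the transcript.

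Before the results, the libraries were checked against each other. All 2651 merged ENR cells, each with more than 1000 UMIs, were found with identical counts in the per-library table labelled ENR. The per-library tables labelled ENR+CD and ENR+CV held each other's cells (1092 and 2506 identical cells), and the names of the merged table were followed here. The numbers of cells that the study gives for these media also run with the merged names. ENR cells are not touched by this exchange. Among merged cells, 1 barcode was shared between ENR and ENR+CD and 0 between ENR and ENR+CV, and no Olfm4-high cell carried a barcode found in another library. In the ENR library, 2 Olfm4-high cells had a barcode 1 base away from that of another kept cell. Doublets were not removed. Kept ENR cells had a median of 1553 UMIs and 826 genes, with 15.3 reads per UMI.

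Olfm4 lies on the forward strand of chromosome 14 at chr14:79984081-80023139 (GRCm38, GENCODE vM21). In the stretch from 250 bases before to 50 bases after its RefSeq start, the core motif of RBPJ, the DNA-binding partner of Notch, was found 1 time when both strands were searched for TGGGAA. It began 12 bases before the start. The site is printed because Olfm4 defines the cells, with the motif in capitals, from the RefSeq promoter table for GRCm38.p6.
Olfm4, chr14:80000278-80000307, forward strand: gccctgagactcTGGGAAgaagccagcatc
The motif itself lies in the 5′ UTR of 1 GENCODE transcript that starts earlier. The same letters occurred in 25.6% of 32851 promoters of this length, and the TCF core ATCAAAG, searched likewise, occurred in 3.73% of them but not in that of Olfm4. Neither motif was found in the promoters of Gkn3, Myb and Ascl2. A match is a description of letters and not of binding.

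Olfm4 itself varied widely among the selected cells. Their Olfm4 counts ran from 3 through a median of 4 to 47 UMIs per cell, or from 0.15% through 0.239% to 0.67% of the cell's UMIs. These values chose the cells and are given as a description. Of all kept ENR cells, 684 held 1 Olfm4 UMI, 389 held 2 and 207 held 3, so counts fell off without a gap at the threshold. The lowest members stood at 0.15% and 0.151% of their UMIs, and the nearest cell with enough UMIs that was left out stood at 0.149%. In all, 169 cells with 3 or more Olfm4 UMIs were left out for a low share. They were deep cells, with a median of 3378 UMIs. Another 117 cells had a share of at least 0.15% from only 1 or 2 UMIs, and these were shallow, at a median of 1151 UMIs.

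Because the rule asks for 3 UMIs, it took deeper cells. Olfm4-high cells had a median of 1899 UMIs (quartiles 1449 to 2835) and cells without Olfm4 a median of 1408 (1155 to 1829). The share of Olfm4-high cells was 11.2% among cells of 1000 to under 2000 UMIs, 16.5% at 2000 to under 4000 and 25.4% at 4000 to under 8000. Cells without an Olfm4 UMI made up 43.7% of the shallowest window, while they were 25.1% and 21.4% of the other two. Each Olfm4 UMI rested on 19.1 reads in Olfm4-high cells and 18.7 in the cells between. Because depth differed, the main lists and genes are compared again within depth windows further on.

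Across genes, Olfm4-high cells and cells without Olfm4 differed in both directions, and which direction held more genes depended on the setting. Levels are given as CPM, a group's summed UMIs of a gene per 1000000 of its UMIs, and a gene counted as past the fold if its CPM differed at least 2-fold, the Poisson intervals of both groups were separate and the pair held at least 20 UMIs. Of 9315 genes with that many UMIs, 136 were past the fold higher (1.46%) and 211 were past the fold lower (2.27%). The typical gene stood slightly higher, with a median log2 ratio of 0.15, and this median moved with the scaling. With mitochondrially encoded and Paneth genes taken out of the total the median was -0.00071, and the split became 60 higher against 254 lower. The balance turned in other settings, with 230 higher against 187 lower under thresholds of 5 UMIs and 0.25%, 107 against 95 in cells of 2000 to under 4000 UMIs, 113 against 86 without cells rich in another lineage and 427 against 261 at 1.5-fold. Of the 9315 genes, 5911 had a ratio above 1. Ratios below should be read against the median, and counts of genes above 1 against this number. Counts past the fold should be read against the shares over all genes, 1.46% higher and 2.27% lower.

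Gkn3 and Myb, named as markers of these cells beside Olfm4, were both higher. They were named with earlier results of these data known, so their levels are given as a description and not as independent support. Gkn3 (chr6:87383256-87388935, reverse strand), a gastrokine of crypt base cells, was measured at 60.1 CPM in Olfm4-high cells (44.8 to 79.1) and 26.3 CPM without Olfm4 (19.0 to 35.4), a ratio of 2.29 (1.5 to 3.52). Myb (chr10:21124935-21160984, reverse strand), a transcription factor of dividing progenitors, stood at 173 CPM against 80.0 CPM, a ratio of 2.17 (1.70 to 2.76). Both were past the fold, and each was also detected in cells without Olfm4.

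Crypt base genes were higher as a group, by less than 2-fold for most. The list of 27 genes, which leaves out Olfm4, Gkn3 and Myb, summed to 4455 CPM in Olfm4-high cells (4314 to 4599) and 2633 CPM in cells without Olfm4 (2555 to 2713), a ratio of 1.69 (1.62 to 1.77). Of its 24 genes with enough UMIs, 22 had a ratio above 1, beside 5911 of all 9315 such genes. Past the fold were 7 higher and 0 lower, beside 136 and 211 of all 9315. The median log2 ratio of the 24 was 0.71. The typical cell gave 0.415% of its UMIs to the list if Olfm4-high (quartiles 0.296 to 0.536%) and 0.254% otherwise (0.136 to 0.378%), so the groups overlapped cell by cell.
Clca4, an epithelial gene of the chloride channel accessory family, was the most abundant of the 7, at 1068 CPM against 458 CPM, a ratio of 2.33 (2.12 to 2.58). The symbol stands for a small family of similar copies, so its reads may be shared among them.
Igfbp4, an IGF-binding protein, had a ratio of 2.39 (1.83 to 3.12). Aqp4, a water channel, had 2.31 (1.81 to 2.95), from 179 CPM against 77.6 CPM. Lgr5 (chr10:115450311-115587780, reverse strand) reached 169 CPM (142 to 199) against 83.7 CPM (70.3 to 99.0), a ratio of 2.01 (1.58 to 2.57), so it lay at the edge of the fold. The cell cycle kinase gene Cdk6 stood at the fold too, with 2.04 (1.38 to 3.0). Nr2e3, a nuclear receptor, had 31 UMIs against 17 and a ratio of 3.52 (1.89 to 6.78), and Prelp, an extracellular matrix proteoglycan, had 15 against 8 and a ratio of 3.62 (1.44 to 9.85), so both rest on few molecules.

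The remaining crypt base genes stood closer together. Smoc2, a matricellular protein gene, had a ratio of 1.76 (1.53 to 2.03), Cdca7 1.75 (1.44 to 2.11) and Axin2, a negative feedback gene of Wnt signaling, 1.74 (1.36 to 2.21). Ascl2, the transcription factor that maintains ISCs, had 1.65 (1.17 to 2.33) from 66 and 77 UMIs. The ratio was 1.53 (1.24 to 1.89) for Sox9, a factor of crypt cells, and 1.5 (1.34 to 1.67) for Slc12a2, the basolateral sodium, potassium and chloride cotransporter. Sox9 did not keep this direction in cells of 2000 to under 4000 UMIs, where its ratio was 0.752 (0.482 to 1.16). Rgmb stood at 1.70, Soat1 at 1.62, Rnf43, a ligase that removes Wnt receptors, at 1.57 and its relative Znrf3 at 1.34 with an interval that includes 1. For Prom1, Lrig1, Mex3a and Ephb3, with ratios from 1.21 to 1.45, the intervals also included 1. Other members stood nearest to level, with Cd44, a hyaluronan receptor, at 0.948 (0.676 to 1.32), the guidance receptor gene Ephb2 at 1.10 (0.713 to 1.67) and the growth factor gene Pdgfa at 0.905 (0.745 to 1.10).
Hopx and Bmi1, which have been used to mark reserve stem cells, stood at 1.22 (0.990 to 1.49) and 0.965 (0.601 to 1.52).

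**Figure D1:**
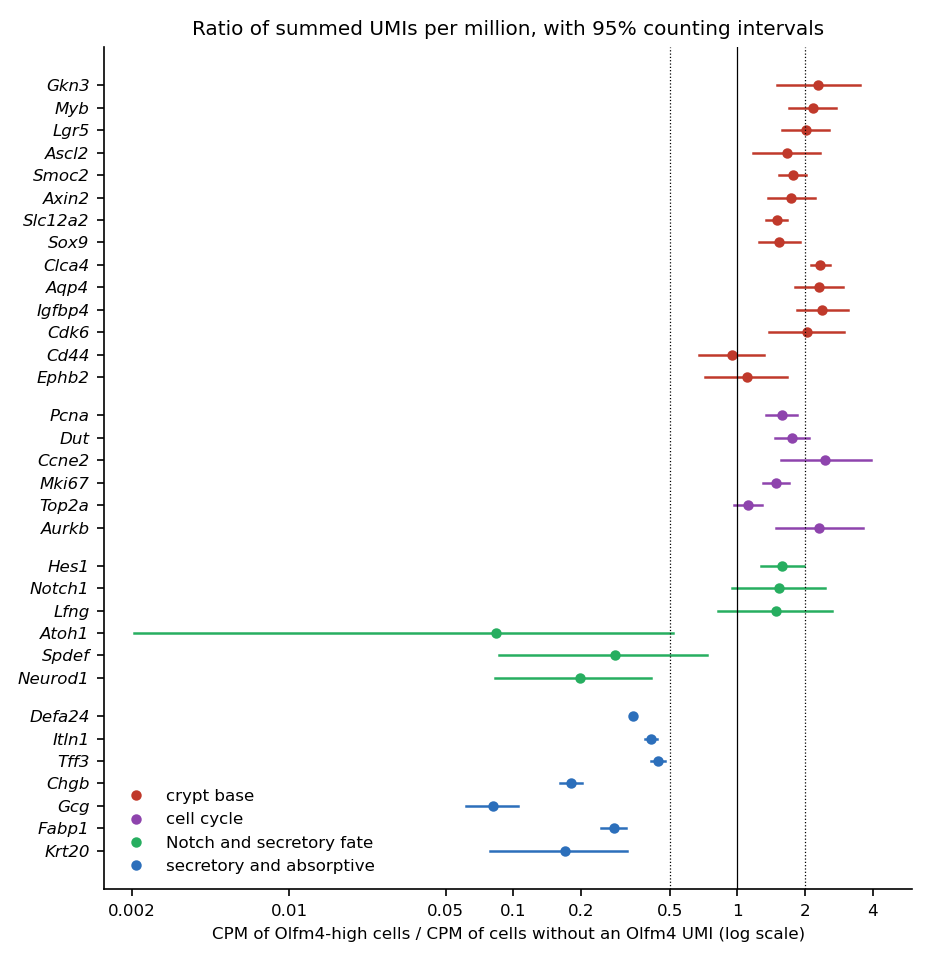
Ratio of CPM in Olfm4-high cells to CPM in cells without an Olfm4 UMI (horizontal axis, log scale) for a selection of the named genes in 4 sets, with points for the ratio, bars for the 95% counting interval and dotted lines at 0.5 and 2. The crypt base genes plotted lie between 0.948 for Cd44 and 2.39 for Igfbp4, and the secretory and absorptive genes plotted lie below 0.5, down to 0.0811 for Gcg.

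Wnt targets and receptors of the medium's growth factors followed more weakly. Of 15 Wnt target genes with enough UMIs, 13 had a ratio above 1, beside 5911 of all 9315 such genes. Only 1 was past the fold, namely Lgr5, and the list's ratio was 1.39 (1.30 to 1.5). The cyclin gene Ccnd1 stood at 1.45 (1.16 to 1.80) and Ccnd2 at 1.11 (0.953 to 1.28). Among receptors of the growth factors and genes of the BMP response, 2 of 14 were past the fold, Lgr5 and the Wnt receptor Fzd7, the latter at 47.2 CPM against 23.2 CPM with a ratio of 2.03 (1.27 to 3.25). Lgr4, a broadly expressed relative of Lgr5, had a ratio of 1.03 (0.750 to 1.40). The BMP targets Id1 and Id3 were level, at 0.974 and 1.01.

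Genes of cell division were somewhat more abundant in Olfm4-high cells, with DNA replication ahead of mitosis. All 33 replication genes had a ratio above 1, and the list stood at 3529 CPM against 2197 CPM, a ratio of 1.61 (1.53 to 1.69). The 40 mitosis genes stood at 4791 CPM against 3710 CPM, a ratio of 1.29 (1.24 to 1.34), and 38 of them were above 1. In both lists 0 genes were past the fold lower, beside 211 of all 9315 genes. Past the fold higher, beside 136 of all 9315, were 2 of 33 and 3 of 40. These were Ccne2, the cyclin of S phase entry (2.47, 1.56 to 3.93), Rpa2, a subunit of the single-strand binding complex (2.04, 1.38 to 3.0), and the mitotic kinase genes Ttk (2.33), Aurkb (2.32) and Bub1 (2.02).
Pcna, the sliding clamp of replication, stood at 343 CPM against 218 CPM, a ratio of 1.58 (1.35 to 1.85), and Dut, Nasp and Hells at 1.75, 1.57 and 1.27. Mki67, the usual proliferation marker, had 447 CPM against 301 CPM and a ratio of 1.49 (1.30 to 1.70). Top2a, a topoisomerase of late S phase and mitosis, had 1.11 (0.967 to 1.28), an interval that includes 1. The joined replication and mitosis lists had a ratio of 1.41 (1.37 to 1.45). Ribosome biogenesis genes had a ratio of 1.33 (1.28 to 1.37), with Npm1, a nucleolar chaperone, at 1.5 (1.40 to 1.61) and 0 of 27 past the fold.

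On the Notch axis, Hes1 stood higher in Olfm4-high cells while 4 factors of secretory commitment were past the fold lower. Hes1, the repressor that Notch turns on to block secretory fate, was at 175 CPM (148 to 205) in Olfm4-high cells and 110 CPM (94.5 to 127) without Olfm4, a ratio of 1.59 (1.27 to 1.98). Notch1 had a ratio of 1.53 (0.944 to 2.45) and Lfng, a glycosyltransferase that modifies Notch, 1.48 (0.821 to 2.63), from 34 and 23 UMIs in Olfm4-high cells, so both intervals include 1. Of 6 such genes with enough UMIs 0 were past the fold, and the list stood at 1.46 (1.23 to 1.73).
Atoh1, the master factor of the secretory lineage that Hes1 represses, gave 1 UMI in all 345 Olfm4-high cells and 23 UMIs in the 958 cells without Olfm4. That is a ratio of 0.0839, with a counting interval of 0.00204 to 0.517. Spdef, which acts in goblet and Paneth cell maturation, had 5 against 34 UMIs (0.284, 0.0866 to 0.729). The endocrine factors Nkx2-2, with 3 against 41 UMIs, and Neurod1, with 8 against 78, had ratios of 0.141 and 0.198. These were the 4 genes past the fold lower of 12 measured in the list of Notch ligands and secretory fate. Of the others, Hes6, at 1.68 (1.33 to 2.13), Foxa3, at 1.30 (0.899 to 1.88), and Sox4, at 1.2 (0.983 to 1.46), had ratios above 1. The 5 left, Insm1, Neurog3, Foxa2, Dll1 and Dll4, had ratios from 0.232 for Insm1 to 0.965 for Dll4. The list as a whole had a ratio of 0.983 (0.874 to 1.10) beside a median log2 ratio of -0.63. The 4 lower calls rest on 1 to 8 UMIs in Olfm4-high cells. In the shallow window of 1000 to under 2000 UMIs Atoh1 had a ratio of 0.269 (0.00632 to 1.79), and without cells rich in another lineage it stood at 0 against 5.14 CPM, where the interval of the ratio reaches 1.25. Hes1 was not told apart from 1 in the shallow window, at 1.39 (0.978 to 1.95), or at 2000 to under 4000 UMIs, at 1.34 (0.841 to 2.12).

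Markers of the differentiated lineages were the genes furthest down. Enteroendocrine genes stood at 2160 CPM in Olfm4-high cells (2062 to 2262) and 10196 CPM without Olfm4 (10042 to 10352), a ratio of 0.212 (0.202 to 0.222), and 24 of 28 were past the fold lower. Paneth genes stood at 20762 CPM against 62807 CPM, a ratio of 0.331 (0.325 to 0.336), with 20 of 23 past the fold lower. Goblet genes had a ratio of 0.433 (0.418 to 0.447), with 9 of 13, and enterocyte genes 0.483 (0.466 to 0.502), with 12 of 27. No measured gene of these lists was past the fold higher, beside 136 of all 9315 genes. Together the 4 lists supplied 65 of the 211 genes past the fold lower among those 9315. Median log2 ratios were -2.22, -1.59, -1.18 and -1.12 in the same order.
Chgb, a granin of endocrine granules, stood at 393 CPM against 2173 CPM, a ratio of 0.181 (0.161 to 0.202). Reg4, a lectin of secretory cells, had 329 CPM against 2118 CPM and a ratio of 0.155 (0.137 to 0.176). Defa24, an alpha-defensin, had 9699 CPM against 28279 CPM, a ratio of 0.343 (0.335 to 0.351), and Itln1, a lectin, had 0.410 (0.385 to 0.436). Defensin genes are near-identical copies, so reads may be split among them. For goblet cells, Tff3, a trefoil peptide, had a ratio of 0.442 (0.411 to 0.474) and Spink4 one of 0.412. For enterocytes, Fabp1, a fatty acid binding protein, had 338 CPM against 1204 CPM and a ratio of 0.281 (0.247 to 0.318), and Prap1 had 0.504. Fabp2, another fatty acid binding protein, stood nearer to level, at 0.844 (0.778 to 0.915), and was level at 1.02 in cells of 2000 to under 4000 UMIs.

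These differences were smaller once cells rich in a lineage were left out. Cells were called rich in a lineage if its list took at least 10% (Paneth), 2% (enteroendocrine) or 5% (goblet, enterocyte) of their UMIs, which is a cut through a range and not a cell type. The same lists chose these cells and gave the lineage ratios, so smaller lineage differences without them follow from the choice. Of 330 Paneth-rich cells, 19 were Olfm4-high (5.76%, 3.50 to 8.85%). The share was 4.55% of 110 enteroendocrine-rich cells (1.49 to 10.3%), 3.17% of 63 goblet-rich cells (0.387 to 11%) and 0 of 20 enterocyte-rich cells (up to 16.8%). Of the 2079 cells rich in none, 15.4% were Olfm4-high (13.9 to 17.0%), with similar depth (median 1546 UMIs, against 1596 in Paneth-rich cells). Lineage-rich cells made up 25 of the 345 Olfm4-high cells and 249 of the 958 cells without Olfm4. Of the 25, 1 was rich in more than 1 lineage.
Without lineage-rich cells in either group, the Paneth ratio moved to 0.714 (0.697 to 0.730), the enteroendocrine ratio to 0.672 (0.630 to 0.717), the goblet ratio to 0.661 (0.633 to 0.689) and the enterocyte ratio to 0.607 (0.583 to 0.633), and the genes past the fold lower fell in number from 211 to 86. Gcg, the proglucagon gene, moved from 0.0811 to 0.365 and Chgb from 0.181 to 0.643, whereas Krt20, a keratin of differentiated epithelium, moved little, from 0.169 to 0.187. Crypt base genes, which had no part in choosing the cells, moved less. Their list stood at 1.52 (1.45 to 1.59), Clca4 at 2.05, Aqp4 at 2.16, Gkn3 at 2.35, Myb at 1.85 and Lgr5 at 1.65.
Olfm4 was not absent from lineage-rich cells. It stood at 524 CPM in Paneth-rich cells (469 to 583), 381 CPM in enteroendocrine-rich cells (305 to 469), 267 CPM in goblet-rich cells (189 to 366) and 88.7 CPM in enterocyte-rich cells (28.8 to 207), against 944 CPM in cells rich in none (915 to 974). How much of this is RNA free in the suspension was not tested. Barcodes of 250 to 499 UMIs, below the depth of kept cells, held 840 CPM of Olfm4 (743 to 946).

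The genes with the largest ratios, among 3824 genes with at least 100 UMIs in the pair, differed in kind between the directions. The 12 lowest held 7 genes of the enteroendocrine list. Afp, alpha-fetoprotein, had 50.7 CPM against 649 CPM (0.0781, 0.0562 to 0.106), Gcg 73.1 CPM against 902 CPM (0.0811), Pcsk1, a prohormone convertase, 0.137, Chga 0.145, Tph1, the enzyme that starts serotonin synthesis, 0.15, and Rgs2, a regulator of G protein signaling, 0.183. Reg4, Krt20, Chgb, the gene models Gm14850 (0.191) and Gm15292 (0.191) and the defensin Defa21 (0.204) made up the rest.
The 12 highest were flatter and of mixed function, all between 2.22 and 2.47. They held 3 crypt base genes, Igfbp4, Clca4 and Aqp4, and 9 others. Gabpb2, which encodes a subunit of a GA-binding transcription factor, led with 2.47 (1.70 to 3.59), followed by the Schlafen gene Slfn9 (2.39), Cdo1, the enzyme that oxidizes cysteine (2.39), and Zbtb38, a zinc finger protein that binds methylated DNA (2.38). Acot1, an acyl-CoA thioesterase, had 2.36, Memo1 2.29, Nit2, an amidase, 2.26, and Gstt3, a glutathione transferase, 2.22. Sdc4, a heparan sulfate proteoglycan of the cell surface, was the best measured of the 9, at 368 CPM against 164 CPM with a ratio of 2.24 (1.90 to 2.64). In cells of 1000 to under 2000 UMIs Sdc4 had 1.84 (1.41 to 2.38), while Cdo1 had 1.44 (0.891 to 2.26), an interval that includes 1.

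Other programs separated less. Mitochondrially encoded RNA took a median of 13.0% of the UMIs of Olfm4-high cells and 16.1% of those without Olfm4, and ribosomal protein genes 11.5% and 9.73%. Summed over cells, their ratios were 0.762 (0.757 to 0.767) and 1.25 (1.24 to 1.26), with 0 genes past the fold, and the part these shares play in the other ratios was not tested beyond the change of scaling given above. Nuclear genes of oxidative phosphorylation had 1.13 (1.11 to 1.14), glycolysis genes 0.990 (0.958 to 1.02), and the fatty acid oxidation and ketogenesis list 1.03 (0.951 to 1.11). Genes induced by dissociation had a summed ratio of 1.07 (1.03 to 1.12), with 0 of 17 past the fold and 6 above 1. Their median log2 ratio was -0.077. Hspa8 stood at 1.31 and Hsp90aa1 at 1.25, while Jun stood at 1.03 and Ier2 at 0.981.
The regenerative epithelium list, by contrast, had a ratio of 0.509 (0.456 to 0.568). Past the fold lower were 7 of its 11 genes, beside 211 of all 9315. Without lineage-rich cells the ratio was 0.454 (0.404 to 0.510). It moved with depth, at 0.791 (0.678 to 0.921) in cells of 1000 to under 2000 UMIs. At 2000 to under 4000 UMIs it was 0.446 (0.358 to 0.553), and at 4000 to under 8000 it was 0.254 (0.198 to 0.324). Areg, an EGF receptor ligand, had 0.374 (0.288 to 0.480), Anxa2 0.456 and S100a6 0.454, while Cyr61, a target of YAP, had 1.68 (1.24 to 2.26). Cyr61 was level at 0.989 in cells of 2000 to under 4000 UMIs.
The epithelial identity list had 1.06 (1.02 to 1.10) as a sum, and its members differed. Epcam stood at 1.33 (1.24 to 1.43), and the simple keratin genes Krt18 at 1.01, Krt8 at 0.916 and Krt19 at 0.832 (0.746 to 0.928). Epithelial transcription factors had 1.35 (1.26 to 1.45), with Ehf at 1.78 (1.52 to 2.10), Hnf4a at 1.54 and Elf3 at 1.26. Tuft and M cell genes were sparse, at 42 and 19 UMIs in Olfm4-high cells, with ratios of 0.609 (0.420 to 0.868) and 0.489 (0.279 to 0.817), and 1 M cell list gene, Anxa5, was past the fold lower. Cells from outside the epithelium were barely seen. The Olfm4-high cells held 4 UMIs of immune cell genes, 2 of MHC class II genes and 0 of red blood cell genes in 848045 UMIs, and 35 UMIs of the stroma and endothelium list, which is led by Vim and Acta2.

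Crypt base and lineage genes were also followed along the amount of Olfm4. Cells were split into those without Olfm4, those with Olfm4 under the rule, members with 0.15 to 0.3% Olfm4 (260 cells), members with 0.3 to 0.6% (83 cells) and members above that (2 cells). Along the first 4 classes the crypt base list stood at 2633, 3390, 4203 and 5020 CPM. Clca4 stood at 458, 660, 982 and 1235 CPM, and Myb at 80.0, 115, 155 and 217 CPM. Lgr5 reached 166 CPM in members of 0.15 to 0.3% and 163 CPM in those of 0.3 to 0.6%, after 83.7 and 128 CPM, so it did not differ between the member classes beyond counting error. Smoc2 went from 363 CPM to 667 CPM between the member classes.
In the opposite direction, Paneth genes stood at 62807, 40348, 23003 and 15168 CPM, and enteroendocrine genes at 10196, 4635, 2423 and 1458 CPM. Atoh1 stood at 14.1, 11.5, 1.58 and 0 CPM, from 23, 30, 1 and 0 UMIs. The mitosis list leveled off early, at 3710, 4805, 4784 and 5045 CPM, whereas the replication list continued, at 2197, 2833, 3357 and 3908 CPM. Notch receptors and targets stood at 197, 234, 266 and 341 CPM. Cell depth did not run in one direction with these classes, with medians of 1408, 1628.5, 1922 and 1696 UMIs.
The 2 cells above 0.6% held 44 and 47 Olfm4 UMIs among 7114 and 7014 UMIs. Between them they had 36 UMIs of Clca4, 5 of Lgr5, 10 of the Paneth list and 0 of Mki67.

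**Figure D2:**
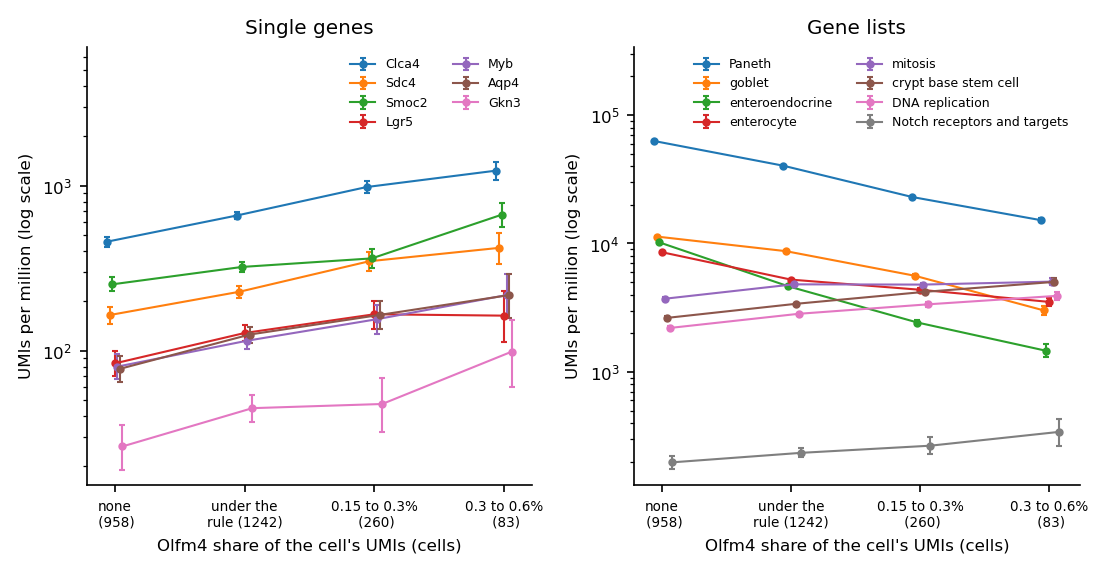
CPM (vertical axes, log scale) of 7 genes and 8 gene lists in 4 classes of ENR cells ordered by their Olfm4 share, with cell numbers under each class and bars for the 95% Poisson interval. The class of 2 cells above 0.6% is left out. The crypt base list climbs from 2633 to 5020 CPM while the Paneth list drops from 62807 to 15168 CPM.

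Within windows of depth the crypt base, replication, mitosis and Notch target lists and the 4 lineage lists kept their directions, with ratios further from 1 in deeper cells. The windows did not match depth fully. Olfm4-high cells had medians of 1491.5, 2535.5 and 5167 UMIs from the shallow to the deep window, against 1276, 2427 and 4874 in cells without Olfm4. For Notch receptors and targets the interval included 1 in the shallow window, at 1.21 (0.915 to 1.58), and in the middle one, at 1.38 (0.988 to 1.93). For the crypt base list the ratio was 1.37 (1.28 to 1.47) at 1000 to under 2000 UMIs, 1.78 (1.63 to 1.94) at 2000 to under 4000 and 2.68 (2.40 to 3.0) at 4000 to under 8000. Lgr5 had 1.57 (1.09 to 2.25), 2.94 (1.75 to 5.07) and 3.22 (1.69 to 6.65) in the same windows, and Clca4 1.57, 2.49 and 5.19. Gkn3 and Myb were not told apart from 1 in the shallow window, with 1.34 (0.578 to 2.88) and 1.44 (0.951 to 2.13), and reached 3.84 (1.72 to 9.38) and 2.23 (1.39 to 3.62) in the middle one. In the deep window Gkn3 had 1.64 (0.673 to 4.40), again not told apart from 1, and Myb 4.80 (2.44 to 10.5). The replication list had ratios of 1.30, 1.69 and 2.49 and the mitosis list 1.15, 1.42 and 1.89. Paneth genes had 0.558, 0.234 and 0.2.
Enteroendocrine genes had 0.547 (0.512 to 0.584), 0.246 (0.226 to 0.267) and 0.0135 (0.0110 to 0.0164). The last value compares 105 UMIs in 51 Olfm4-high cells with 6023 UMIs in 43 cells without Olfm4, so it rests on few cells. Of the 136 genes past the fold higher, 134, 135 and 134 kept a ratio above 1 in the shallow, middle and deep window. Of the 211 lower ones, 206, 207 and 207 kept a ratio below 1. These genes were chosen on the same cells, so the counts describe how evenly a difference was spread over depth.

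**Figure D3:**
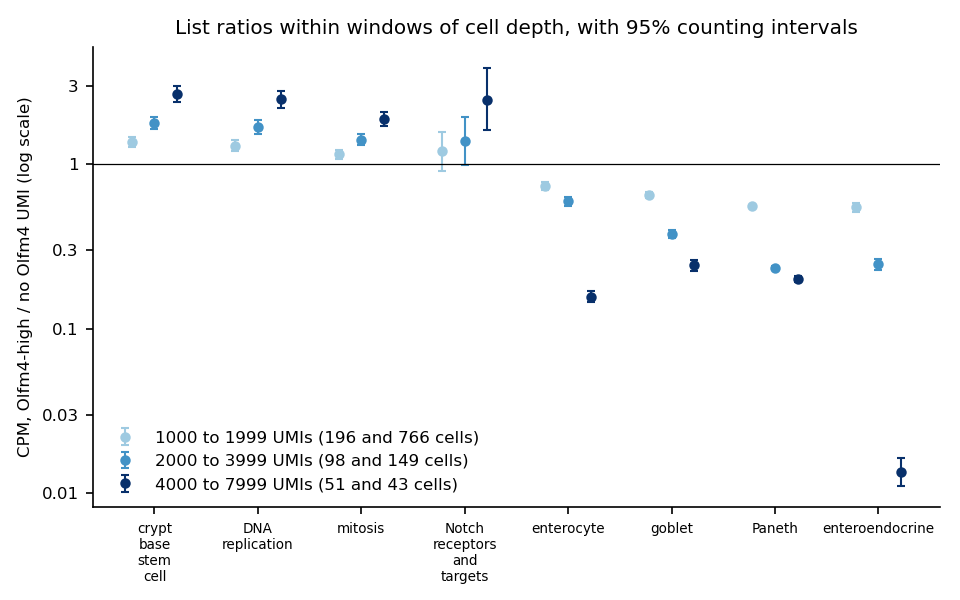
Ratio of CPM in Olfm4-high cells to cells without Olfm4 (vertical axis, log scale) for 8 gene lists within 3 windows of UMIs per cell, with bars for the 95% counting interval and the numbers of cells in the key. The crypt base ratio is 1.37, 1.78 and 2.68 from the shallow to the deep window and the enteroendocrine ratio 0.547, 0.246 and 0.0135.

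How many cells had a given transcript was compared after each cell was thinned to 1000 UMIs. Olfm4-high cells then had a median of 630 genes (quartiles 599 to 660) and cells without Olfm4 586 (523 to 624). Clca4 was found in 53.0% of Olfm4-high cells (47.6 to 58.4%), 34.9% of cells without Olfm4 (31.8 to 38.0%) and 30% of Paneth-rich cells (25.1 to 35.3%), cells that should have little of it. Unthinned, the shares were 76.8%, 45.3% and 44.2%, at median depths of 1899, 1408 and 1596 UMIs. Lgr5 was found in 13.3% of Olfm4-high cells (9.93 to 17.4%), 7.83% of cells without Olfm4 (6.21 to 9.71%) and 7.27% of Paneth-rich cells (4.72 to 10.6%), and in 28.4%, 11.9% and 12.4% unthinned. For both genes the thinned intervals of the cells without Olfm4 and the Paneth-rich cells overlapped. For Lgr5 the interval of Olfm4-high cells overlapped that of Paneth-rich cells too, and that of goblet-rich cells (9.52%, 3.58 to 19.6%). It did not overlap that of cells without Olfm4. Aqp4 was at 16.2%, 6.37% and 7.27%, or 29.3%, 11% and 13.6% unthinned. Gkn3 was at 5.22% (3.12 to 8.12%), 2.40% (1.53 to 3.58%) and 1.82% (0.670 to 3.92%), or 9.86%, 3.65% and 5.45% unthinned. The thinned intervals of Gkn3 overlapped, from 18, 23 and 6 cells. Most Olfm4-high cells showed no Lgr5 molecule at this depth, which does not mean that they lack it.
Mki67 was found in 31.3% of Olfm4-high cells (26.4 to 36.5%), 23.0% of cells without Olfm4 (20.3 to 25.8%) and 15.8% of Paneth-rich cells (12 to 20.1%), and in 49.9%, 31.2% and 26.1% unthinned. Of the 345 thinned Olfm4-high cells, 10 had Lgr5 and Mki67, 36 had Lgr5 alone, 98 had Mki67 alone and 201 had neither. With Clca4 in place of Lgr5 the numbers were 48, 135, 60 and 102.
Lineage transcripts were found in Olfm4-high cells as well, at shares that separated the groups far less than the CPM did. Lyz1, the Paneth lysozyme, was found in 39.7% of them (34.5 to 45.1%), 48.3% of cells without Olfm4 and 36.4% of enteroendocrine-rich cells (27.4 to 46.1%), which should lack it, and in 52.2%, 55.5% and 45.5% unthinned. Chgb was in 24.1% (19.6 to 28.9%), against 29.2% without Olfm4 and 25.2% of Paneth-rich cells (20.6 to 30.2%), and in 31.0%, 34.6% and 32.1% unthinned. Fabp1 was in 23.2% (18.8 to 28.0%), against 31.8% and 28.2%, and in 33.0%, 37.8% and 37.3% unthinned. For each of these genes the share in Olfm4-high cells was within counting error of a lineage that should lack it, and it is not read as expression. Such lineages differed among themselves, since Chgb was in 12.7% and Fabp1 in 4.76% of goblet-rich cells.

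**Figure D4:**
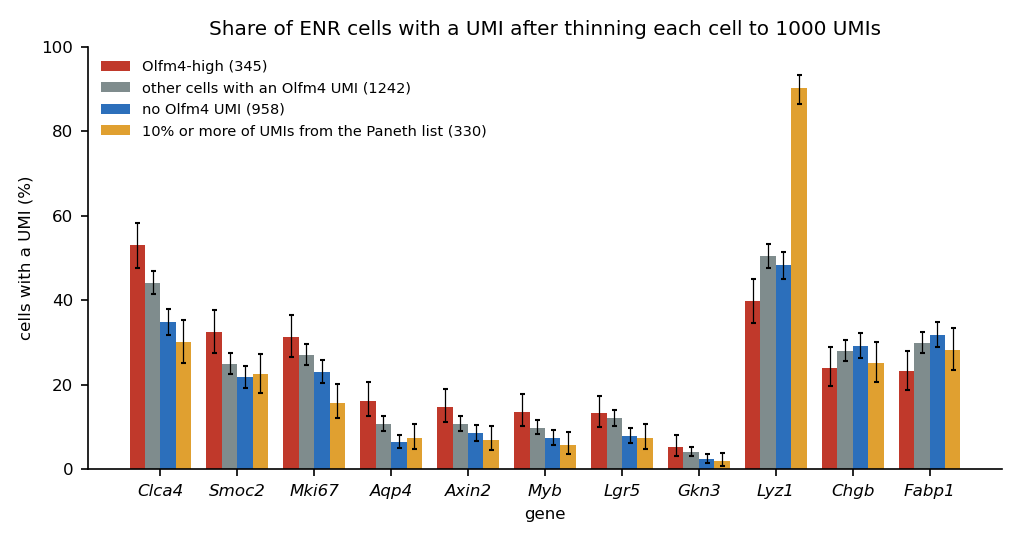
Percent of ENR cells with at least 1 UMI of each gene (vertical axis) after thinning every cell to 1000 UMIs, in Olfm4-high cells, other cells with Olfm4, cells without Olfm4 and Paneth-rich cells, with bars for the 95% exact binomial interval. Clca4 is found in 53.0% of Olfm4-high cells and 34.9% of cells without Olfm4, while Chgb differs little, at 24.1% and 29.2%.

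The same rule found few cells in the other media. Over all kept cells Olfm4 stood at 854 CPM in the ENR library (829 to 880). It was at 2.64 CPM with CD (1.37 to 4.62) and at 152 CPM with CV (138 to 167), each from 1 library, so medium and array cannot be told apart. In ENR+CD 0 of 2383 cells met the rule, with an exact upper limit of 0.155%, and 5 cells held any Olfm4. In ENR+CV 18 of 985 cells met it (1.83%, 1.09 to 2.87%), at a higher median depth of 2499 UMIs in all its kept cells. Those 18 cells are few for a description. They had a median of 2666 UMIs and Clca4 at 1016 CPM (766 to 1323), beside 1068 CPM in the ENR members and 429 CPM in ENR+CV cells without Olfm4, with Aqp4 at 259 CPM (141 to 434) and Lgr5 at 166 CPM (76.0 to 316). Hes1 stood at 573 CPM (389 to 813) in them and at 657 CPM (624 to 691) in ENR+CV cells without Olfm4, beside 175 CPM in the ENR members. Gkn3 gave 0 UMIs in them, which allows up to 68.2 CPM. Their Mki67 level was 111 CPM (40.7 to 241), against 375 CPM in ENR+CV cells without Olfm4 and 447 CPM (403 to 494) in Olfm4-high ENR cells.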

How the data were processed

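The authors demultiplexed Seq-Well libraries with bcl2fastq, aligned reads to mm10 through a Drop-seq portal, binned them by barcode and collapsed them by UMI. The submitters' notes also name STAR and Seurat. Their versions, and the gene annotation, were not stated in what was read here. The merged table they deposited holds raw UMI counts, and the per-library tables hold raw UMI and read counts. Cells of 1000 to under 8000 UMIs and at least 400 genes were kept (2545 of 2651 ENR cells, 5095089 UMIs). UMIs were summed per group, with exact Poisson intervals for sums, exact binomial intervals for ratios and Clopper-Pearson intervals for shares, all at 95%. No test was run and no p-value computed. Thinning drew 1000 UMIs per cell without replacement (seed 7). Calls were tried only on simulated sums drawn with Poisson counting error and no spread between cells. The intervals assume the same, so this trial cannot show how spread between cells affects the calls. Members and gene lists were chosen with earlier results of these data known. Named genes were Olfm4, Gkn3, Myb, the crypt base genes with at least 20 UMIs in the pair, the 4 most abundant members of every other list, the 12 largest ratios each way among genes with at least 100 UMIs, and members of counts of 5 or fewer. Lyz1 was added by choice. Results for 2 of the named genes are not reported here. Alternatives covered thresholds, depth, cell filters, comparison cells, cell weighting, scaling, lineage-rich cells, count minimum and fold. Coordinates come from GENCODE vM21, which held 93.3% of 23271 symbols 1 time. Python 3.11.15, NumPy 2.4.6 and SciPy 1.17.1 were used.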

Additional observations from a re-analysis of the deposited data

Results flagged for a closer look

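Barcodes of 1000 UMIs or fewer in the per-library ENR table were left out of every comparison, yet 85 of them met both Olfm4 thresholds. This signal was flagged because it lies in data outside the kept cells. The 85 barcodes had a median of 770 UMIs, against 619 in the 2170 barcodes of that depth without Olfm4. Their crypt base list had a ratio of 1.32 (1.16 to 1.5), Clca4 1.55 (1.15 to 2.04) and the Paneth list 0.537 (0.510 to 0.565). Lgr5 stood at 0.865 (0.343 to 1.82), from 7 UMIs, and the enteroendocrine list at 0.959 (0.863 to 1.06). Whether these barcodes hold whole cells was not tested.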

How the results depend on the processing

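The share of Olfm4-high cells was 13.6% and moved to 28.2% with thresholds of 2 UMIs and 0.1%, 4.05% with 5 UMIs and 0.25%, 18.8% in cells of 2000 to under 8000 UMIs, 16.5% at 2000 to under 4000 and 15.4% without lineage-rich cells. The 136 genes higher became 83 and 230 under the looser and stricter thresholds, 233 at 2000 to under 8000 UMIs, 216 with no UMI ceiling and no gene minimum, 58 against all other kept ENR cells, 60 with mitochondrially encoded and Paneth genes out of the total, 31 with at least 100 UMIs and 427 at 1.5-fold. The 211 genes lower became 95 at 2000 to under 4000 UMIs, 86 without lineage-rich cells and 102 with at least 100 UMIs. More genes were higher than lower under the stricter thresholds (230 and 187), at 2000 to under 4000 UMIs (107 and 95), without lineage-rich cells (113 and 86) and at 1.5-fold (427 and 261), and the numbers were equal at 2000 to under 8000 UMIs (233).

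List ratios are given in the order looser thresholds, stricter thresholds, 2000 to under 8000 UMIs, 2000 to under 4000 UMIs, no ceiling, all other cells, mean over cells, other total and no lineage-rich cells. The crypt base ratio was 1.55, 1.91, 2.08, 1.78, 1.86, 1.44, 1.53, 1.52 and 1.52. The Paneth ratio was 0.421, 0.234, 0.205, 0.234, 0.285, 0.424, 0.414, 0.297 and 0.714, and the enterocyte ratio 0.552, 0.393, 0.319, 0.595, 0.436, 0.635, 0.619, 0.434 and 0.607. The cell cycle ratio, which stayed near 1.41 under both other thresholds, was 1.73, 1.52, 1.59, 1.19, 1.30, 1.26 and 1.25 under the rest. None of these 4 ratios crossed 1. Of 140 named genes with a ratio, 5 had a main interval that excluded 1 and crossed 1 under these alternatives. Genes whose main interval included 1 were not counted as crossing, so those near 1 may have changed side as well. Sox9 (0.752), Fabp2 (1.02) and Cyr61 (0.989) crossed 1 at 2000 to under 4000 UMIs, and Gip (1.05) and Vim (1.89) without lineage-rich cells. The cause was not tested.

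With 1 library per group, leaving out a replicate was not possible, and the spread between cultures is unknown. No paired analysis was possible because each group holds 1 library. Depth limits genes of few UMIs, such as Atoh1 and Gkn3, and Olfm4 below detection is counted as none.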
